A study of Mus musculus with 22 samples.

Results

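The 10 germ cell genes described here are the transcription factor genes Prdm1, Prdm14 and Tfap2c, the RNA-binding protein genes Nanos3 and Dnd1, the developmental pluripotency genes Dppa3, Dppa5a and Dppa4, the membrane protein gene Ifitm3 and the receptor gene Kit. They were chosen by symbol, and all 10 were found among the 32285 genes of the count matrices. Their RNA was followed across the 25 cluster names and the days of culture that the authors gave in their cell table, of which 77674 single cells were used. Gastruloids are aggregates of mouse embryonic stem cells that form the body axis and its early tissues in culture. All of them came from wild-type E14Tg2A stem cells, a male mouse line grown with serum and leukaemia inhibitory factor. Each well received 300 cells, which aggregated over 48 h before 3 µM of CHIR was added, a GSK3 inhibitor that switches on Wnt signalling. Every group therefore carries the same line and the same Wnt pulse, and the groups differ in day and in experiment.

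In 3 MULTI-seq experiments each gastruloid was marked with its own lipid-anchored barcode before pooling, so that its cells could be traced after droplet sequencing. A total of 53730 cells carried the barcode of 1 gastruloid, and 135 of the 136 gastruloids held at least 30 such cells and served as replicates. MULTI-seq 1 had 24 gastruloids of day 5. MULTI-seq 2 had 11 of day 4 and 12 of day 4.5 in a shared pool. MULTI-seq 3 had 24 of day 3 in a pool of their own, 16 of day 3.5 and 16 of day 4 in a shared pool, and 16 of day 4.5 and 16 of day 5 in another. A separate experiment without gastruloid barcodes gave 1 lane of day 3 and 1 lane of day 4 cells, and some MULTI-seq 2 lanes (pool C) also had no gastruloid calls. Gastruloids held between 1293296 and 57333371 UMIs (unique molecular identifiers, each counting 1 captured RNA molecule), and the 18 lanes had a median of 8287 to 38443 UMIs per cell. Any 2 lanes shared at most 15 cell barcodes, and the shared barcodes were at most 0.41% of the smaller lane. Levels are given as CPM, the UMIs of a gene per 1000000 UMIs of the same cells, which was not corrected for gene length, so levels were compared between cells and not between genes.

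Primordial germ cells are the founders of sperm and eggs. In the mouse they arise at the posterior edge of the epiblast under BMP and Wnt signals, and PRDM1, PRDM14 and TFAP2C then shut down the somatic programme and restore pluripotency genes. NANOS3 and DND1 bind RNA and keep the new germ cells alive, DPPA3 guards methylated DNA, DPPA5A and DPPA4 are shared with pluripotent stem cells, IFITM3 (Fragilis) marks the competent epiblast, and KIT is the receptor for a survival and homing signal. Several of these genes also work elsewhere, PRDM1 in endoderm and pharyngeal mesoderm, TFAP2C in ectoderm and KIT in blood, melanocyte and endoderm lineages, so no single member defines a germ cell.

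Promoter windows from RefSeq (GRCm38.p6), from 250 bases before to 50 bases after a transcript start, were at hand for 4 of the 10 genes, Prdm1, Nanos3, Ifitm3 and Kit. Kit and Prdm1 are shown because both had their highest levels in cell types other than the cells named PGCs, and Nanos3 because it shares a TFAP2 palindrome with Kit. Capitals mark that palindrome, GCCNNNGGC, the letters bound by AP-2 factors such as TFAP2C, searched on both strands.
Kit, chr5:75574737-75575036, plus strand: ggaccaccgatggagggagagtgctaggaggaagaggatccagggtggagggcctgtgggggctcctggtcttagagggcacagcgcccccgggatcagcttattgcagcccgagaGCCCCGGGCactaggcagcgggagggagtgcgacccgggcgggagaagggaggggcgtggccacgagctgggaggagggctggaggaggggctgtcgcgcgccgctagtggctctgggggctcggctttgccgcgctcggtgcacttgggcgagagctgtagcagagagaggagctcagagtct
Nanos3, chr8:84176503-84176802, minus strand: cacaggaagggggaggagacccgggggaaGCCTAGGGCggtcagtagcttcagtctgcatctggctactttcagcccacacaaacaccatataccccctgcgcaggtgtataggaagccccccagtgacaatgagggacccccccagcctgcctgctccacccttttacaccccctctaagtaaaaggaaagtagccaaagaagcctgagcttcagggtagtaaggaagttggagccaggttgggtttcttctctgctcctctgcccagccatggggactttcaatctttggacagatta
Prdm1, chr10:44458699-44458998, minus strand: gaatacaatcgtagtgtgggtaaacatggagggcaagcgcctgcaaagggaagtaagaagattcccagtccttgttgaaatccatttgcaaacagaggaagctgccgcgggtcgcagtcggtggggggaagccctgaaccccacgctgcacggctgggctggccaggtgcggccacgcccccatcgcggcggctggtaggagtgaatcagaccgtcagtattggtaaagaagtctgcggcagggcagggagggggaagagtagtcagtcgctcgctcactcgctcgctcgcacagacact
The palindrome occurred in 16.6% of the 32851 promoter windows of this length, so a match is common and describes letters only. The windows of Kit and Prdm1 each held 20 CpG sites and that of Nanos3 held 3, against a median of 7 over all windows. The GC content was 69.0% for Kit, 59.7% for Prdm1 and 55.3% for Nanos3, with a median of 52.7% over all windows. A PRDM1 core (GAAAGTG, in 4.81% of all windows) and a PRDM14 motif (GGTCTCTAA, in 0.256%) were also searched on both strands, and neither was among the letters of these windows.

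All 10 are protein-coding genes on the mm10 (GRCm38) assembly. Prdm1 lies at chr10:44437177-44528501, Prdm14 at chr1:13113457-13127163 and Tfap2c at chr2:172549593-172558622. Nanos3 lies at chr8:84173731-84185217 and Dnd1 at chr18:36763671-36766214. Dppa3 lies at chr6:122626410-122630272, Dppa5a at chr9:78367052-78368177, Dppa4 at chr16:48283733-48294237, Ifitm3 at chr7:141009586-141010770 and Kit at chr5:75574916-75656722. Dppa5a and Ifitm3 belong to families with close copies, so reads shared with a copy could make their counts less certain, which was not tested.

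The cells that the authors named PGCs were few. They numbered 279, or 0.359% of all cells, with a median of 33890 UMIs, and with all days pooled 8 of the 10 genes had their highest level of all 25 names in them. Prdm1 and Kit did not. Since the names differ in their mix of days, the order was also read within each pool of MULTI-seq 3, the experiment that gave most of these cells, over names with at least 20 cells. The count was again 8 of 10, without Prdm1 and Kit, in the pool of days 3.5 and 4 (23 names) and in that of days 4.5 and 5 (21 names). At day 3 (13 names) it was 6, since Ifitm3 was higher in Epiblast (37.6 against 30.8 CPM, with overlapping intervals) and Nanos3 in Notochord (2.70 CPM from 3 UMIs) and Late Neurectoderm (1.75 CPM from 4 UMIs, against 1.52 CPM from 7 UMIs). Among the 6, the interval of Tfap2c (15.6 CPM, 12.2 to 19.7) overlapped that of Caudal Neurectoderm (14.3 CPM, 12.2 to 16.6). That of Prdm14 (0.651 CPM from 3 UMIs, 0.134 to 1.90) overlapped that of Primitive Streak (0.164 CPM, 0.115 to 0.228). The values by name include cells that carried barcodes of more than 1 gastruloid, called doublets by the authors (4797 in all, 18 of them among the 279), and no other doublet caller was run. Without them the pooled count stayed at 8. Because the names were given to clusters made from expression, these differences between names are a description and were not tested. Shares of cells below are cells with at least 1 UMI of the gene, intervals are exact 95% (Poisson for CPM, binomial for shares), and both cover counting error only.

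Among the specifiers, Tfap2c reached 25.2 CPM (22.3 to 28.3, from 274 UMIs) in the cells named PGCs, where 36.2% of cells held a UMI. Outside them it was highest in ectoderm, at 11.2 ± 3.92 CPM (SD, n = 15 gastruloids with at least 20 such cells) in Caudal Neurectoderm and 10.2 ± 4.57 CPM (SD, n = 23) in Early Neurectoderm, and no UMI was found in the Endothelium. Within the day 3 pool of MULTI-seq 3 Tfap2c stood closer, at 15.6 CPM in cells named PGCs and 14.3 CPM in Caudal Neurectoderm, with overlapping intervals. Prdm14 was barely captured. It had 145 UMIs in the whole data set, and 12 of these fell in cells named PGCs (1.10 CPM, 0.57 to 1.93), against 0.239 CPM in Caudal Epiblast and 0.189 CPM in Primitive Streak. Prdm1 stood at 12 CPM (10.1 to 14.3) in cells named PGCs, which ranked below 3 other names when all days were pooled. Within pools the cells named PGCs were 4th of 13 names in the day 3 pool, 6th of 23 in the pool of days 3.5 and 4 and 2nd of 21 in the last pool. Over all days its levels were 41.9 ± 11.4 CPM (SD, n = 12) in Cardiopharyngeal Mesoderm, 28.9 ± 11.4 CPM (SD, n = 31) in Mature Endoderm and 25.7 ± 11.4 CPM (SD, n = 17) in Head Mesoderm, so the last 2 did not differ beyond their spread. Mature Somites at day 4 of MULTI-seq 3 held 18.9 to 38.7 CPM of Prdm1 in 7 gastruloids, a level that the pooled order does not show. Mature Endoderm alone held 31.8% of all Prdm1 UMIs and the cells named PGCs 1.09%.

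The RNA-binding protein genes were rare, and with all days pooled their highest levels were in cells named PGCs. Nanos3 stood at 5.70 CPM (4.37 to 7.30, 62 UMIs) in cells named PGCs and at 1.80 CPM in Notochord, the next name. Dnd1 stood at 15.3 CPM (13.0 to 17.8, 166 UMIs) there, ahead of Primitive Streak, Anterior Primitive Streak at 3.13 CPM and Notochord at 3.05 CPM. In the much larger Primitive Streak cluster Dnd1 averaged 8.06 ± 6.23 CPM (SD, n = 37), and these cells held 53.6% of all its UMIs. Cells named PGCs held 4.94% of them. At matched days the 2 names stood closer. Dnd1 was at 7.81 CPM (5.47 to 10.8) in cells named PGCs of the day 3 pool and 4.91 CPM in its Primitive Streak cells, and at 13.7 CPM (10.3 to 17.9) and 11.2 CPM (10.3 to 12.2) in the pool of days 3.5 and 4. Primitive Streak cells of day 3.5 alone held 13.9 ± 7.44 CPM (SD, n = 13), so the names did not differ beyond the spread there.

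Dppa3, also known as Stella, was the most restricted member. Cells named PGCs held 1075 of its 1429 UMIs, or 75.2%, at 98.8 CPM (93.0 to 105). No other name exceeded 0.895 CPM, the level in Primitive Streak, where 44 of 9604 cells held a UMI. Even so only 36.2% (30.6 to 42.1) of the cells named PGCs held a Dppa3 UMI. Dppa5a was found in every one of these 279 cells, at 3123 CPM, and they held 45.4% of its UMIs. It was graded across the early names, with 63.5 ± 30.1 CPM (SD, n = 37) in Primitive Streak, 61.4 CPM in Anterior Primitive Streak, 55.0 CPM in Early Nascent Mesoderm and 42.8 CPM in Epiblast, and with no UMI in Neurons. Dppa4 stood at 102 CPM in cells named PGCs (88.9% of cells), then at 32.1 CPM in Endothelium, 26.1 CPM in Neurons (31 UMIs in 15 of 70 cells) and 19.0 CPM in Epiblast.

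Ifitm3 and Kit had broader patterns. Ifitm3 stood at 118 CPM (112 to 125) in cells named PGCs and at 100 CPM in Endothelium, followed by 31.4 CPM in Epiblast and 27.0 ± 10.9 CPM (SD, n = 31) in Mature Endoderm. Its lowest level was 2.52 CPM in Neurons. Kit was highest in Mature Endoderm, at 53.0 ± 11 CPM (SD, n = 31), where 72.7% of cells held a UMI, and these cells held 29.7% of all Kit UMIs. Endothelium followed at 45.7 CPM and Anterior Primitive Streak at 29.8 CPM. Cells named PGCs ranked below 7 other names, at 11.8 CPM, with 0.548% of the Kit UMIs, close to Caudal Neurectoderm at 15.1 ± 3.46 CPM (SD, n = 15) and Caudal Epiblast at 14.7 ± 3.94 CPM (SD, n = 28). The last 2 did not differ beyond their spread.

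**Figure D1:**
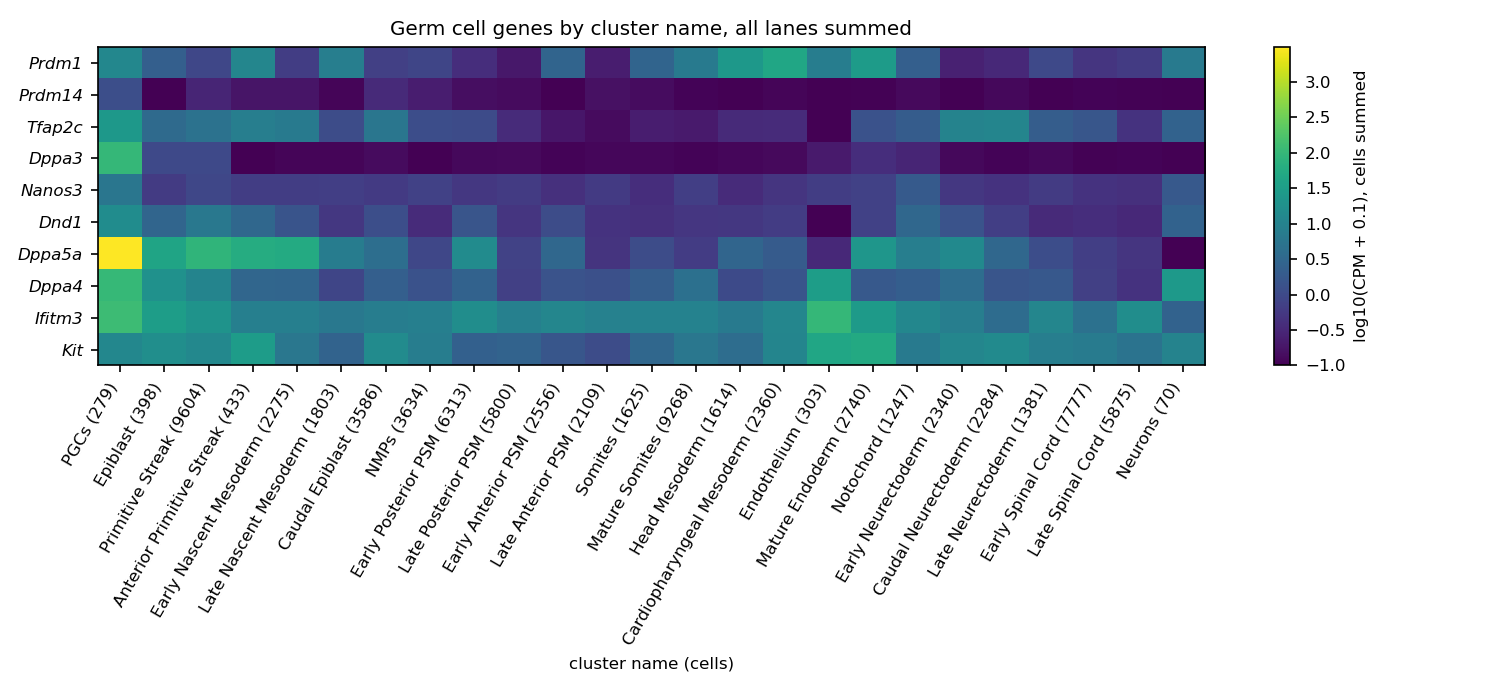
Heat map of the 10 germ cell genes (rows) over the 25 cluster names (columns, with their numbers of cells), coloured by log10(CPM + 0.1) of the summed UMIs. The PGCs column is the brightest of its row for 8 genes, while Prdm1 is brightest in Cardiopharyngeal Mesoderm (44.7 CPM) and Kit in Mature Endoderm (53.8 CPM).

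Free RNA in the droplets can place a UMI in a cell that does not make it. Late Spinal Cord (median 24617 UMIs per cell) and Mature Somites (median 22316) were therefore read as a background. The day 3 pool of MULTI-seq 3 held 6 Late Spinal Cord cells and no Mature Somites. That pool gave 141 of the 279 cells named PGCs, and the free RNA of its lanes could not be read from these names. Dppa3 UMIs were found in 2 of 5875 and 3 of 9268 of these cells, and in 0 of 70 Neurons (median 15525 UMIs). The shares in Late Spinal Cord and Mature Somites were 1.02% and 1.27% for Dppa5a, 0.80% and 0.281% for Tfap2c, 0.834% and 1.46% for Nanos3, and 0.596% and 1.00% for Dnd1, all below the shares in cells named PGCs. Prdm14 was found in 1 and 3 of these cells, and in 12 of the 279 cells named PGCs, or 4.30% (2.24 to 7.39). No such background can be read for 4 other members, since Ifitm3 was found in 26.3% and 19.9% of these cells, Kit in 11.8% and 11.5%, and Prdm1 and Dppa4 in 10.1% and 8.32% of Mature Somites.

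For each member with at least 5 CPM in some name, the 3 genes whose log2(CPM + 1) ran most nearly parallel to it over the 25 names were listed. Pearson's r is a description here, since the 25 points come from the same lanes and a single name can set it. Dppa3 was matched most closely by Slc28a1 (r = 0.997), Gm40987 (0.996) and Hormad1 (0.993), and Dppa5a by Dmc1 (0.966), Rbmxl2 (0.935) and Gm20939 (0.934). Dmc1 and Hormad1 are meiosis genes. Nanos3 was closest to Gstp2 (0.912), Cyct (0.900) and Pdcl2 (0.896), and Dnd1 to Platr4 (0.930), Rbmxl2 (0.913) and Fmr1nb (0.907). Dppa4 was closest to Rbm43 (0.931), Tfap2c to Slc25a39 (0.928), Kit to Arrdc1 and Pkp2 (0.907 each), Prdm1 to Prxl2a (0.876) and Ifitm3 to Pdk1 (0.858).

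Most cells named PGCs came from MULTI-seq 3, with 141 in the day 3 pool, 78 in the pool of days 3.5 and 4, and 33 in the pool of days 4.5 and 5. The members stood at different levels in these pools, always lowest at day 3. Dppa3 was at 34.3 CPM (29.1 to 40.1) in the day 3 pool, 125 CPM (114 to 137) in the next and 207 CPM (187 to 229) in the last. Ifitm3 went from 30.8 to 137 and 314 CPM, Tfap2c from 15.6 to 22.9 and 54.6 CPM, Dnd1 from 7.81 to 13.7 and 35.1 CPM, and Nanos3 from 1.52 to 7.38 and 13.4 CPM. Dppa5a was at 1662, 3860 and 5315 CPM and Dppa4 at 78.3, 116 and 131 CPM. Prdm1 was at 3.91 CPM at day 3 and at 19.3 and 18.9 CPM later, and Kit at 5.21, 15.5 and 19.5 CPM. Day and pool cannot be told apart in these values, each pool is 1 source of cells, and no test was made.

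Of 15 other early germ cell genes, 11 were higher in each later pool, as were 9 of the 10 members, which again is a description without a test. Of all 12053 genes with at least 10 UMIs in these cells, 17.0% had that order. Prdm14 is among the 9 members with 3, 5 and 3 UMIs, so its order lies within counting error. For Kit (61 and 35 UMIs), Nanos3 (29 and 24) and Dppa4 (454 and 235) the intervals of the 2 later pools overlapped. For Tfap2c (72 and 90) and Dnd1 (36 and 54) those of the first 2 pools did. The other 4 of the list, Sall4, Utf1, Prmt5 and Lin28a, had no such order, and Lin28a was lower in the last pool than at day 3 (64.0 against 98.9 CPM). Rhox6 and Rhox9, homeobox genes of the early germ line, stood at 0.651 and 0.868 CPM in the day 3 pool, 5.85 and 7.89 CPM in the next and 22.8 and 19.5 CPM in the last. Ifitm1, a close relative of Ifitm3, was at 282, 657 and 1178 CPM. Of 12 later germ cell genes, Dazl and Mael were higher and Ddx4, Sycp3 and Brdt lower in each later pool, 5 had another order, and Nanos2 and Piwil4 had no UMI in these pools. Over all cells named PGCs Ddx4 (Vasa) was at 9.92 CPM and Dazl at 4.59 CPM. Of 10 pluripotency genes 2 were higher and 1 lower in each later pool, and of 6 formative epiblast genes none was higher and 4 were lower. The pluripotency genes Pou5f1, Sox2 and Nanog stood at 713, 155 and 72.3 CPM, and 9 of 10 pluripotency genes exceeded 5 CPM.

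Markers of other cell types were also read in the cells named PGCs. No UMI was found for 2 of 10 endothelial and blood progenitor markers (Cdh5 and Tie1) and 1 of 6 neural crest markers (Sox10). Over the MULTI-seq 3 pools the endothelial markers Pecam1, Cldn5 and Tal1 were higher in each later pool, and Etv2, Egfl7 and Lmo2 lower. Elf5 and Krt8 of the trophoblast and surface ectoderm list and Ets1 of the neural crest list were also higher in each. No marker of these 2 lists was lower in each. The summed level of 10 endothelial and blood progenitor markers was 85.2 CPM, that of 8 trophoblast and surface ectoderm markers 45.3 CPM with Krt5 at 0, and that of 6 neural crest markers 17.2 CPM. Over all cells of a gastruloid the group means of these sums were 51.1 to 98.2, 18.0 to 85.9 and 11.8 to 32.3 CPM in the same order. These ranges include the sums in cells named PGCs. The 8 endoderm markers summed to 1172 CPM, of which Trh gave 711 and Epcam 363 CPM, against 4321 CPM in Mature Endoderm. Within the cells named PGCs, 5 of the 8 endoderm markers (Sox17, Foxa2, Foxa1, Cldn6 and Spink1) were higher in each later pool, Cer1 and Epcam had another order, and Trh was lower in each, at 810, 785 and 237 CPM. Sox17 and Spink1 went from 0.217 and 0 CPM at day 3 to 22.4 and 20.4 CPM and then 23.9 and 160 CPM. Their part in the members' differences between pools was not tested. Markers of residual naive embryonic stem cells (Esrrb, Klf4, Tfcp2l1, Zfp42, Tbx3 and Nanog) lie within the pluripotency and early germ cell lists. Zfp42 was higher in each later pool, and the others had another order. Whether some cells named PGCs were such stem cells was not tested.

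Single cells that carried several members at the same time were counted for 6 core genes, Prdm1, Prdm14, Tfap2c, Dppa3, Nanos3 and Dnd1. At least 3 of the 6 were found in 61 of 279 cells named PGCs, or 21.9% (17.2 to 27.2), and in 68 of the 77395 other cells, or 0.0879%. No core gene was found in 92 of the 279 cells, 1 in 71 and 2 in 55. The share with at least 3 was 7.09% (3.45 to 12.7) in the day 3 pool, 33.3% (23.1 to 44.9) in the pool of days 3.5 and 4 and 63.6% (45.1 to 79.6) in the pool of days 4.5 and 5. When every cell was thinned to 5000 UMIs, which left out 214 shallower cells of the data set, these shares were 0.709%, 1.28% and 6.06%, too few to be ordered. The thinned share of cells with no core gene was 81.6%, 53.8% and 39.4% in the same order.

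The 61 cells with at least 3 core genes were set beside the other 218 for members that the count did not use. They were deeper, with a median of 42488 against 31459 UMIs, and came more from the later pools (10 of 141, 26 of 78 and 21 of 33 cells), where these members were higher, so the levels were read within each pool. Dppa5a was higher in them in all 3 pools, at 3822 against 1472 CPM at day 3, 4646 against 3449 CPM in the next pool and 5655 against 4752 CPM in the last. Ifitm3 was at 61.7 CPM (39.1 to 92.6) against 28.1 CPM (23.3 to 33.6), 200 against 105 CPM, and 342 CPM (308 to 378) against 268 CPM (230 to 310) in the same order. Kit was at 28.2 against 8.91 CPM in the pool of days 3.5 and 4, with 5.36 CPM (2 UMIs) against 5.19 CPM at day 3 and 26.8 CPM (18.1 to 38.2) against 7.40 CPM (2.40 to 17.3, 5 UMIs) in the last. Dppa4 was at 147 against 72.2 CPM at day 3, and its intervals overlapped in both later pools (114 against 116 CPM and 129 against 135 CPM). Of the 68 cells with other names, 35 were named Primitive Streak and 16 Mature Endoderm. The 35 Primitive Streak cells had Dppa5a at 1259 CPM against 80.5 CPM in the rest of that name, Dppa4 at 41.8 against 10.3 CPM and Ifitm3 at 95.1 against 19.6 CPM. The 16 Mature Endoderm cells had a median of 118780 UMIs against 35509 for the rest, with Dppa5a at 469 against 16.1 CPM and Kit at 43.5 against 54.0 CPM. By their gastruloid barcodes 5 of these 16 cells and 3 of the 35 Primitive Streak cells were called doublets. Without any cells called doublets 21.8% (17.0 to 27.3; 57 of 261) of the cells named PGCs held at least 3 core genes.

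**Figure D2:**
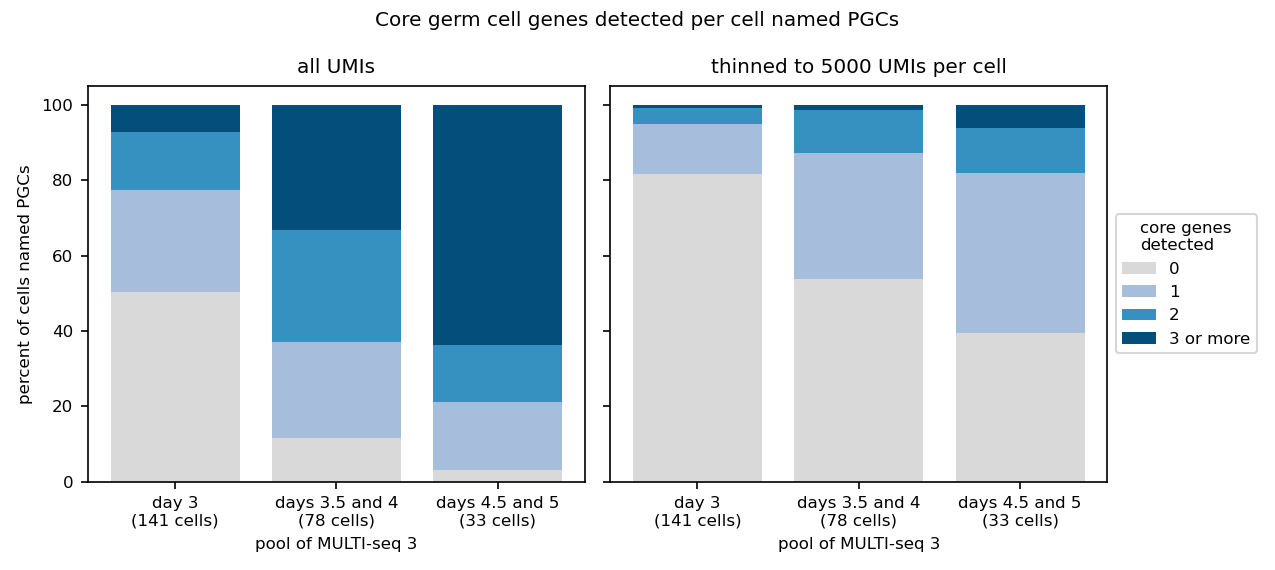
Stacked bars of the percent of cells named PGCs with 0, 1, 2 or at least 3 of the 6 core germ cell genes, by MULTI-seq 3 pool (141, 78 and 33 cells), with all UMIs and with each cell thinned to 5000 UMIs. The share with at least 3 is 7.09%, 33.3% and 63.6% with all UMIs and stays at or below 6.06% after thinning, while the share with 0 is lower in each later pool in both.

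The authors also mapped each cell to an embryo reference, and that mapping divided the same cells differently. None of the 279 cells named PGCs was mapped to the reference germ cells. Of these cells 259 were mapped to Epiblast, 15 to Primitive Streak, 4 to Anterior Primitive Streak and 1 to Gut tube. Conversely 136 cells were mapped to PGC, of which 59 were named Epiblast, 41 Primitive Streak and 24 Notochord. In those 136 cells Dppa3 was at 0.88 CPM (3 UMIs), Dppa5a at 25.2 CPM and Prdm14 had no UMI, and Dnd1, at 9.98 CPM, was the only member with its highest level there among the 49 mapped names of at least 50 cells. Against that 1 gene, 8 had their highest level in the cells named PGCs by cluster.

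Cells named PGCs often lacked a gastruloid barcode. Of the 279, 97 carried the barcode of 1 gastruloid, 145 were negative (no barcode called), 18 were called doublets and 19 lay in lanes without calls. In the pool of days 3.5 and 4 they made up 1.84% (1.39 to 2.39; 55 of 2990) of negative cells and 0.103% (0.0621 to 0.161; 19 of 18429) of cells with a gastruloid barcode. In the pool of days 4.5 and 5 the shares were 3.43% (1.93 to 5.60; 15 of 437) and 0.109% (0.0632 to 0.174; 17 of 15663). At day 3 they were 1.44% (1.13 to 1.82; 70 of 4847) and 1.00% (0.763 to 1.30; 58 of 5778), with overlapping intervals. Negative cells held the higher share in 12 of 14 lanes, which are technical splits of pools and no replicates. Each MULTI-seq 2 lane among them rested on 1 cell named PGCs. Looked at from the other side, 70.5% (59.1 to 80.3) of the cells named PGCs in the pool of days 3.5 and 4 were negative, against 13.2% of all its cells and 36.3% for Early Neurectoderm, the next of the names with at least 20 cells in that pool. Below that number, 5 of 9 Neurons and 1 of 2 Endothelium cells were negative. At day 3 other names stood close to the cells named PGCs, of which 49.6% (41.1 to 58.2) were negative. The share was 47.0% for Late Neurectoderm, 46.4% for Early Spinal Cord, 45.3% for Caudal Neurectoderm and 40.1% for all cells of that pool.

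Negative and barcoded cells named PGCs differed in the levels of the members, given as a description without a test. Of the 19 barcoded cells of days 3.5 and 4, 18 were of day 4, while the day of a negative cell is not known. Day and barcode therefore cannot be told apart in these values. In the pool of days 3.5 and 4, Dppa3 was at 177 CPM (160 to 195) in the 55 negative and at 56.3 CPM (44.0 to 71.0) in the 19 barcoded cells, and Dppa5a was at 4668 and 2928 CPM. Tfap2c was at 30.2 and 11.1 CPM and Ifitm3 at 162 and 118 CPM, while Kit was at 16.2 CPM (11.4 to 22.3) and 15.1 CPM (9.07 to 23.5). At least 3 core genes were found in 34.5% (22.2 to 48.6) of the negative and 26.3% (9.15 to 51.2) of the barcoded cells, but the barcoded cells were deeper, with a median of 66785 against 38015 UMIs. With each cell thinned to 5000 UMIs, no core gene was found in 43.6% (30.3 to 57.7) of the negative and 78.9% (54.4 to 93.9) of the barcoded cells. The other pools did not show one order. In the pool of days 4.5 and 5 Dppa3 was at 192 CPM (162 to 225) in negative and 245 CPM (214 to 280) in barcoded cells, and Ifitm3 at 514 and 179 CPM. At day 3 Dppa3 was at 31.1 CPM (24.3 to 39.2) and 19.6 CPM (13.7 to 27.1), and Dppa5a at 1540 and 1879 CPM. Values per gastruloid rest on a minority of the cells named PGCs, which at days 3.5 and 4 had the lower levels of Dppa3, Dppa5a, Tfap2c and Ifitm3.

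**Figure D3:**
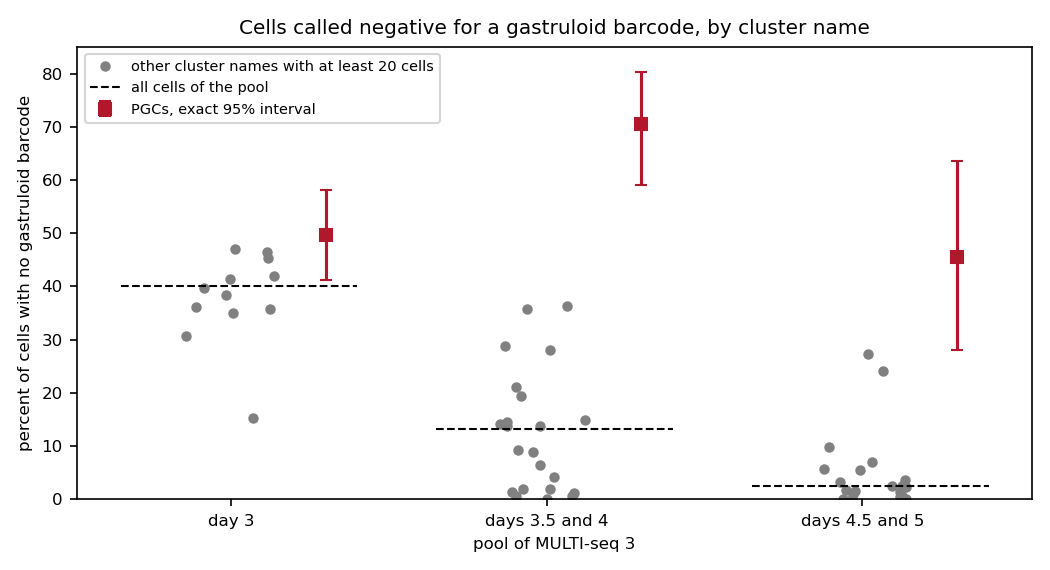
Percent of cells with no gastruloid barcode (vertical axis) for each cluster name with at least 20 cells, by MULTI-seq 3 pool (horizontal axis). Cells named PGCs are in red with their exact 95% interval, and the share over all cells is a dashed line. In the pool of days 3.5 and 4 the PGCs stand at 70.5% against 13.2% over all cells, and at day 3 at 49.6% against 40.1%.

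At day 3, 22 of the 24 gastruloids held at least 1 cell named PGCs, 58 cells in all and at most 6 in a gastruloid, a mean share of 1.02 ± 0.654% (SD, n = 24). At day 3.5, 1 of 16 gastruloids held such a cell, and at day 4 it was 9 of 16. Such counts move with the cells sampled, and the median was 243 cells per gastruloid at day 3, then 288, 854, 279 and 697 from day 3.5 to day 5. The mean share went from 0.0195 ± 0.0779% (SD, n = 16) to 0.121 ± 0.124% (SD, n = 16), higher by 0.101 percentage points (2-sided permutation test, adjusted p = 0.0215 over 2 comparisons). At day 4.5 it was 2 of 16 gastruloids with 0.0307 ± 0.0838%, and at day 5 it was 9 of 16 with 0.127 ± 0.135%, higher by 0.0964 percentage points (2-sided permutation test, adjusted p = 0.0216). The groups overlapped at 0 in both. Negative cells have no day and are left out, and they were 55 of the 78 cells named PGCs in the first pool and 15 of 33 in the second. A barcode loss that differs between days cannot be told apart from a change in share. Both calls rest on few cells and on single lanes: the permutation p was 0.0719 without lane B and 0.0574 without lane D of the first pool, and 0.193 without lane B and 0.248 without lane C of the second. In MULTI-seq 2, with medians of 143 and 231.5 cells, none of the 11 day 4 and 12 day 4.5 gastruloids held a cell named PGCs, and in MULTI-seq 1 (median 399.5 cells) it was 2 of 24.

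Gene levels per gastruloid were the UMIs summed over all its cells, and in such sums fewer cells of a type and less RNA per cell cannot be told apart. Day comparisons used edgeR's quasi-likelihood test with Benjamini-Hochberg adjustment over all genes tested, at an adjusted p of 0.05, and the log2 changes below carry their standard errors. Consecutive comparisons share a group of gastruloids. Members too rare for that test are given by their counts and a 2-sided permutation test of log2(CPM + 1) per gastruloid, which was run for 10 members in 8 comparisons and whose p is not adjusted.

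From day 3 to day 3.5 in MULTI-seq 3, 4 of the 6 members tested fell and none rose, in a comparison that called 74.8% of all genes. The median change of the members was -0.54 (log2) and that of all genes 0.03. Pluripotency genes had 2 higher and 5 lower of 9 tested, endoderm markers 0 and 4 of 8, and trophoblast and surface ectoderm markers 0 and 3 of 3. Endothelial markers had 2 higher and 2 lower of 5 and neural crest markers 2 and 1 of 3. The part of these lists in the members' changes was not tested. Day and pool cannot be told apart here. Dppa5a went from 41.5 to 161 CPM (median 74.2) at day 3 to 3.43 to 31.4 CPM (median 10.1) at day 3.5. All 16 day 3.5 gastruloids lay below the lowest of day 3, and the change was -2.85 ± 0.22 (adjusted p = 1.79e-15). Dppa4 went from 5.33 to 11.2 CPM (median 8.03) to 1.24 to 7.20 CPM (median 3.83), a change of -1.32 ± 0.15 (adjusted p = 2.56e-10), with 13 of 16 gastruloids below the day 3 range.

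Dnd1 fell in the same step by 0.57 ± 0.17 (log2, adjusted p = 0.00292), from a median of 3.29 CPM (1.86 to 5.96) to 2.59 CPM (0.772 to 4.40). Ifitm3 fell by 0.51 ± 0.13 (log2, adjusted p = 0.000366), from a median of 13.9 CPM (9.17 to 21.4) to 10.0 CPM (5.26 to 17.9). The days overlapped for both genes, with 5 (Dnd1) and 7 (Ifitm3) of 16 day 3.5 gastruloids below the day 3 range and none above it. Tfap2c (-0.27 ± 0.18, adjusted p = 0.179) and Kit (-0.08 ± 0.08, adjusted p = 0.345) did not pass. Primitive Streak cells went from a mean of 57.1% of a gastruloid to 13.2% over this step, while within that name Dppa4 was at 9.67 ± 2.73 CPM (SD, n = 24) and 9.63 ± 5.04 CPM (SD, n = 13). Dnd1 within that name was at 4.92 ± 1.60 and 13.9 ± 7.44 CPM, and Ifitm3 at 16.6 ± 2.97 and 28.5 ± 8.09 CPM (SD, n = 24 and 13), the opposite direction to the whole gastruloids. Dppa5a within it was at 77.5 ± 15.8 and 37.7 ± 33.5 CPM, in the same direction.

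From day 3.5 to day 4, within a shared pool, Prdm1 rose and 3 of the 7 members tested fell, where 60.4% of all genes were called. Prdm1 went from 0 to 2.84 CPM (median 0.493) to 0.432 to 29.8 CPM (median 11), and 13 of 16 day 4 gastruloids lay above every day 3.5 gastruloid. The change was 3.67 ± 0.50 (log2, adjusted p = 3.1e-07). Tfap2c went from 1.68 to 14.9 CPM (median 6.11) to 0.541 to 7.58 CPM (median 1.2), with 13 of 16 below the day 3.5 range and a change of -1.88 ± 0.34 (adjusted p = 2.15e-05). Dnd1 changed by -1.56 ± 0.23 (adjusted p = 1.13e-06), from a median of 2.59 CPM to 0.812 CPM (0.370 to 2.02). Dppa4 changed by -1.06 ± 0.23 (adjusted p = 0.000251), to a median of 1.55 CPM (0.730 to 4.03). The 7 lowest Dnd1 gastruloids and the 5 lowest Dppa4 gastruloids of day 4 lay below the day 3.5 range.

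Cell makeup moved with these changes, and its part in them was not tested. The 3 names with the highest Prdm1 levels went together from a mean of 0% to 6.81% (Cardiopharyngeal Mesoderm), 0% to 4.59% (Head Mesoderm) and 0.674% to 7.73% (Mature Endoderm) of a gastruloid. Caudal and Early Neurectoderm, the names with the most Tfap2c outside the PGCs, went from 17.6% and 9.20% to 2.62% and 0.621%. Dppa5a (0.40 ± 0.44, adjusted p = 0.439), Ifitm3 (0.05 ± 0.15, adjusted p = 0.812) and Kit (-0.07 ± 0.18, adjusted p = 0.742) did not pass. Without the cells named PGCs the Dppa5a value was -0.38 (adjusted p = 0.446).

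From day 4 to day 4.5 in MULTI-seq 3, 3 of 6 members tested fell, where 66.1% of all genes were called, and these days again lie in different pools. Prdm1 changed by -2.02 ± 0.54 (adjusted p = 0.00161) to a median of 1.2 CPM (0 to 10.4), and Tfap2c by -1.60 ± 0.43 (adjusted p = 0.00158) to a median of 0.390 CPM (0 to 1.53). Kit changed by -0.50 ± 0.21 (adjusted p = 0.0365), from a median of 10.6 CPM (5.50 to 25.8) to 6.58 CPM (3.77 to 18.2), and this call was lost without lane B of the later pool (-0.41, adjusted p = 0.0964). The 2 days overlapped for all 3 genes, with 6, 12 and 4 of 16 day 4.5 gastruloids below the day 4 range. Dppa5a, at -1.28 ± 0.63, did not pass (adjusted p = 0.071), but did when lane A of the later pool was left out (-2.08, adjusted p = 0.00596) and when lane D of the earlier pool was (-1.41, adjusted p = 0.0499), in a joint fit of all gastruloids (-1.25, adjusted p = 0.0174) and with total UMIs (-1.45, adjusted p = 0.0392). By permutation it was -1.78 (unadjusted permutation p = 0.00555), with 10 of 16 day 4.5 gastruloids below the day 4 range. Tfap2c was too rare to be tested without lane A of the earlier pool, or without lane A or C of the later one. Cardiopharyngeal Mesoderm and Mature Endoderm were at 0.294% and 3.29% of a gastruloid at day 4.5. The summed endoderm markers had medians of 628 CPM at day 4 and 168 CPM at day 4.5, with 0 higher and 1 lower of 8. Trophoblast and surface ectoderm markers had 0 higher and 2 lower of 2 tested and pluripotency genes 1 and 5 of 8. Endothelial markers had 2 higher and 1 lower of 4 and neural crest markers 1 and 0 of 3. The part of these lists was not tested.

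From day 4.5 to day 5, within a shared pool, only Ifitm3 of the 5 members tested changed, where 13.5% of all genes were called. Ifitm3 went from 8.44 to 17.4 CPM (median 10.4) to 6.37 to 19.2 CPM (median 14.4), and 14 of 16 day 5 gastruloids lay above the day 4.5 median. The rise was 0.34 ± 0.11 (log2, adjusted p = 0.0288). The adjusted p was 0.102 without lane B, 0.0903 in a joint fit of all gastruloids and 0.0507 without the cells named PGCs. Dppa5a was uneven, at 0 to 24.0 CPM (median 0.675) and then 0.275 to 60.7 CPM (median 12), a difference of 1.48 ± 0.67 that did not pass (adjusted p = 0.143), but did in the joint fit (1.45, adjusted p = 0.0313) and by permutation (1.46, unadjusted permutation p = 0.0407). Prdm1 (0.05 ± 0.54), Kit (0.03 ± 0.20) and Dppa4 (0.28 ± 0.32) did not pass either.

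In MULTI-seq 2, from day 4 to day 4.5 within a shared pool, Kit was the only one of 5 members tested that changed, where 7.36% of all genes were called. Kit went from 4.53 to 17.3 CPM (median 12.2) to 5.48 to 10.7 CPM (median 7.55), and none of the 12 day 4.5 gastruloids exceeded the day 4 median. The fall was -0.57 ± 0.17 (adjusted p = 0.0435), and it was lost without lane 3 (adjusted p = 0.358), with at least 100 cells per gastruloid (0.126), with no filter (0.0657), in a joint fit of all gastruloids (0.0619) and with total UMIs (0.0557). Markers of endoderm, the name with the most Kit, moved with it, and their part was not tested. Of 8 such markers 4 fell and none rose (50%, median -1.73), their summed level went from 32.7 to 1559 CPM (median 426) to 23.9 to 477 CPM (median 129), and Mature Endoderm from a mean of 5.43% to 2.42% of a gastruloid. Prdm1, in contrast to MULTI-seq 3, showed no fall that passed, at 0 to 10.9 CPM (median 3.02) and 0 to 14.6 CPM (median 2.78), a difference of 0.25 ± 0.62 (adjusted p = 0.887). Dppa5a passed by permutation alone (-1.02, unadjusted permutation p = 0.02). A test of the difference between the 2 experiments called 33.9% of all genes and, of the 6 members tested, Prdm1 alone, at -2.27 ± 0.87 (adjusted p = 0.0353).

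**Figure D4:**
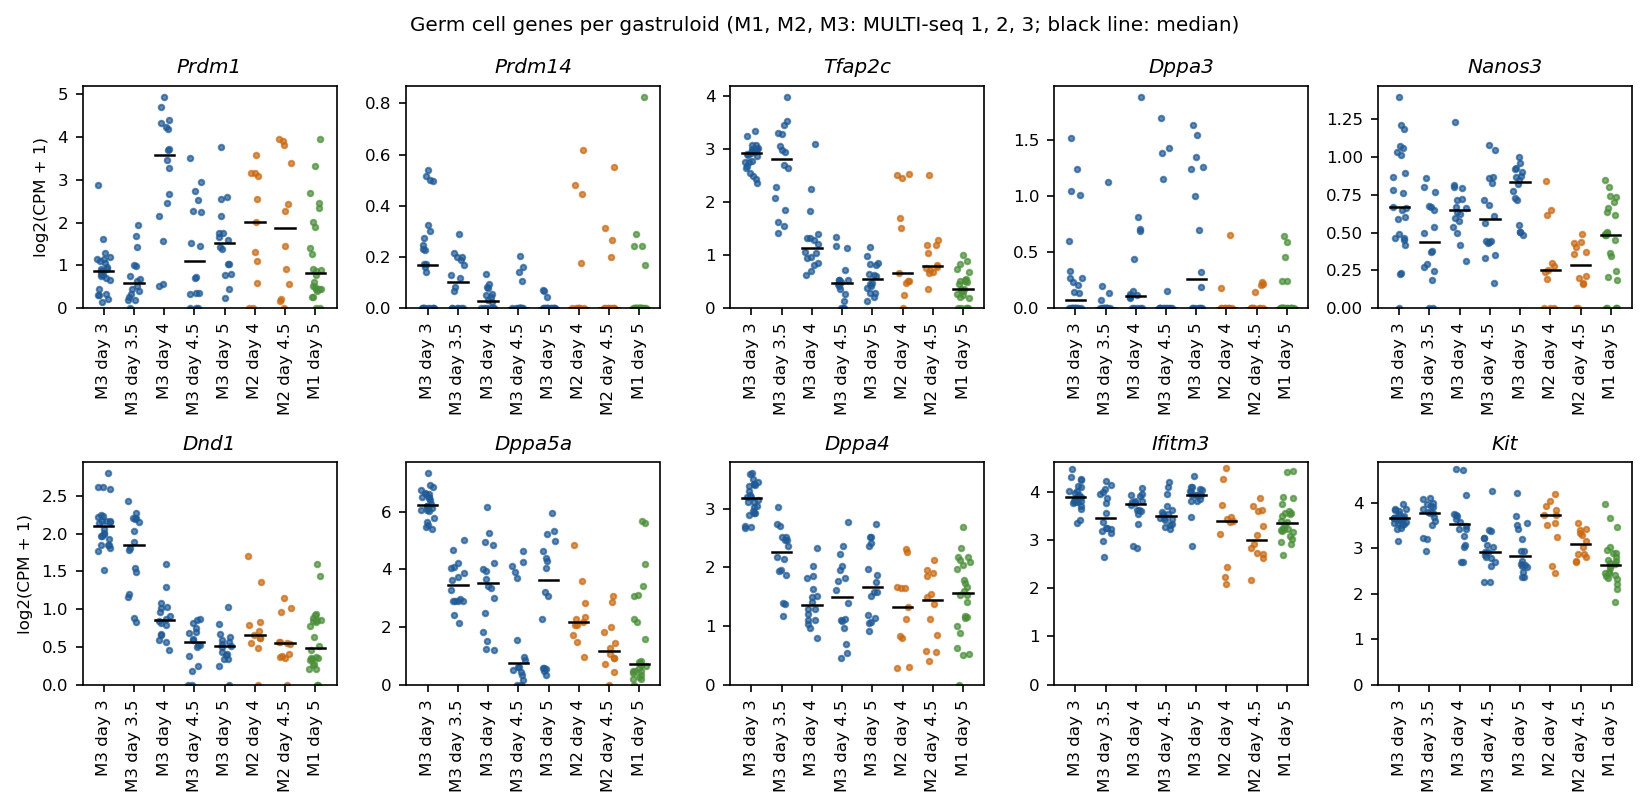
Level of each germ cell gene per gastruloid, as log2(CPM + 1), in the 8 groups of the MULTI-seq experiments (M1, M2, M3 with the day), 1 point per gastruloid and a black line at the median. Dppa5a at day 3 (41.5 to 161 CPM) does not overlap day 3.5, Prdm1 is highest at day 4 of MULTI-seq 3 (median 11 CPM), and Tfap2c is at or below 1.53 CPM in the MULTI-seq 3 groups of days 4.5 and 5.

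The rarest members, Dppa3, Prdm14 and Nanos3, were below the count filter of edgeR across these days. Dppa3 had 46 UMIs over the 24 gastruloids of day 3, then 20, 177, 83 and 226 UMIs over the 16 gastruloids of each later day of MULTI-seq 3, and 12, 12, 5, 11 and 7 gastruloids were at 0 in the same order. It had 7 UMIs in MULTI-seq 1 and 2 and 4 UMIs at days 4 and 4.5 of MULTI-seq 2. Its highest level in any gastruloid was 2.69 CPM, at day 4 of MULTI-seq 3. Prdm14 had 24, 17, 12, 5 and 4 UMIs over the days of MULTI-seq 3. Nanos3 had medians of 0.587, 0.353, 0.568, 0.502 and 0.782 CPM from day 3 to day 5 of MULTI-seq 3, and the gastruloids of any 2 neighbouring days overlapped. The unadjusted permutation p for Nanos3 was 0.0148 for its lower mean at day 3.5 than at day 3, 0.0179 for its higher mean at day 4, and 0.589 and 0.06 for the 2 later steps. For Prdm14 it was 0.0184 for the lower mean at day 4 than at day 3.5 and at least 0.152 in the other steps, and for Dppa3 it was at least 0.119 in every step. Other members missed the filter in some steps only. Dnd1 was at a mean of 0.881 CPM at day 4 and 0.454 CPM (0 to 0.833) at day 4.5, with 5 of 16 gastruloids below the day 4 range (unadjusted permutation p = 0.0007), and at 0.430 CPM at day 5 (permutation p = 0.854). Tfap2c was at 0.478 and 0.516 CPM at days 4.5 and 5 (permutation p = 0.604), and Prdm1 at 1.04 and 0.776 CPM at days 3 and 3.5 (permutation p = 0.343). In MULTI-seq 2 the unadjusted permutation p of the 5 members below the filter, Dppa3, Prdm14, Nanos3, Dnd1 and Tfap2c, was at least 0.270.

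Changes within a cell type were tested only between days that shared a pool, in names with at least 6 gastruloids per day holding 20 or more cells of that name. That left 2 names from day 3.5 to 4, 5 names from day 4.5 to 5 and none in MULTI-seq 2, and the other steps were not tested within names. In Mature Somites from day 4.5 to day 5 (850 and 3190 cells), Kit and Dppa4 fell among 3 members tested, where 14.6% of all genes were called. Kit was at 2.70 to 7.58 CPM (median 4.88) in 10 gastruloids and at 1.72 to 4.30 CPM (median 3.00) in 16, a change of -0.84 ± 0.18 (adjusted p = 0.000864). Dppa4 was at 2.50 to 11.5 CPM (median 6.15) and 2.02 to 8.15 CPM (median 3.75), a change of -0.70 ± 0.23 (adjusted p = 0.035). The days overlapped for both genes. Ifitm3 did not pass (-0.20, adjusted p = 0.388).

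Prdm1 in Mature Somites was too low for the test at these days, at 0 to 10.4 CPM at day 4.5 and 0.209 to 3.21 CPM at day 5, but it stood at 18.9 to 38.7 CPM in the 7 gastruloids of day 4. Kit in the same cells stood at 8.46 to 20.9 CPM at day 4. Neither gene's day 4 range overlapped that of the 2 later days, while Dppa4 at day 4 was lower, at 0.890 to 3.39 CPM. Day 4 lies in another pool than the later days, so day and pool cannot be told apart here. How many of all genes had ranges apart in these cells was not counted. In MULTI-seq 2 the somite level of Prdm1 was 8.58 ± 6.29 CPM (SD, n = 4) at day 4 and 12.1 ± 8.34 CPM (SD, n = 7) at day 4.5, and that of Kit was 9.96 ± 3.20 and 7.46 ± 2.97 CPM. Day 5 of MULTI-seq 1 had 1.43 ± 2.16 CPM of Prdm1 and 2.58 ± 2.27 CPM of Kit (SD, n = 22). In Mature Endoderm of MULTI-seq 3 Prdm1 was at 37.9 ± 8.72 CPM at day 4 (SD, n = 13) and 20.5 ± 9.25 CPM at day 5 (SD, n = 8), while Kit was at 51.1 ± 12.5 and 53.8 ± 10.4 CPM, a difference within its spread.

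**Figure D5:**
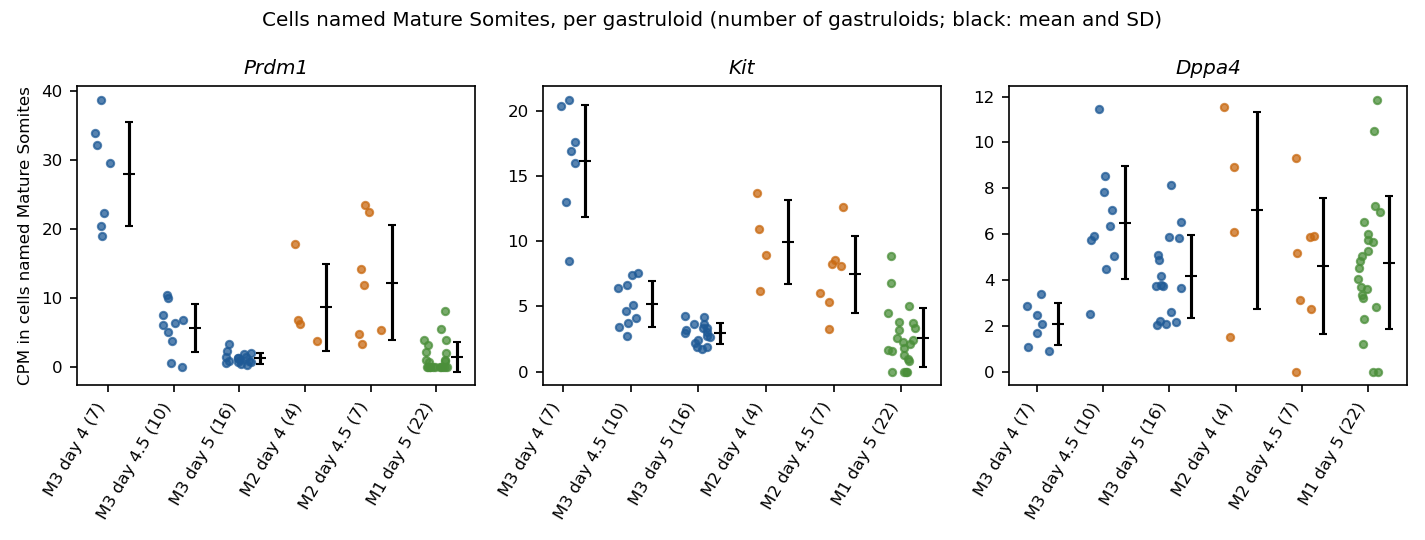
Levels of Prdm1, Kit and Dppa4 in cells named Mature Somites, in CPM per gastruloid with at least 20 such cells, by experiment and day, with mean and SD. Prdm1 at day 4 of MULTI-seq 3 (18.9 to 38.7 CPM) lies above both later days, and Dppa4 is highest at day 4.5 in that experiment (mean 6.50 CPM). Day 4 lies in another pool than the later days of that experiment.

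Other names gave single changes. In Caudal Epiblast from day 3.5 to day 4, Kit was at 11.7 to 23.5 CPM (median 17.7) and then 6.75 to 15.2 CPM (median 12.5) in 13 gastruloids each, a change of -0.49 ± 0.11 (adjusted p = 0.00114). It was the only call among 3 members, where 18.8% of all genes were called. In Early Posterior PSM (presomitic mesoderm) over the same days, Dppa5a was at 4.56 to 22.2 CPM (median 13.6, 10 gastruloids) and then 0.672 to 16.8 CPM (median 8.78, 15 gastruloids), a change of -0.75 ± 0.20 (adjusted p = 0.00298). Ifitm3 was the other member tested there and did not pass, and 36.9% of all genes were called. The days overlapped in both names.

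From day 4.5 to day 5 Ifitm3 rose in Late Spinal Cord and in NMPs, the neuromesodermal progenitors. In Late Spinal Cord it was at 9.62 to 16.4 CPM (median 13.9, 7 gastruloids) and then 15.6 to 29.2 CPM (median 20.4, 8 gastruloids), a change of 0.63 ± 0.14 (adjusted p = 0.00596), 1 call among 2 members where 7.79% of all genes were called. In NMPs it was at 5.00 to 9.86 CPM (median 5.89, 8 gastruloids) and then 6.24 to 16.1 CPM (median 12.4, 14 gastruloids), a change of 0.87 ± 0.19 (adjusted p = 0.00319), 1 call among 2 members where 6.06% were called. The days overlapped in both. In Early Spinal Cord, where edgeR called 12.3% of all genes, 0 of 2 members passed, and Kit had an unadjusted p of 0.0411 (-0.29 ± 0.14, adjusted p = 0.173). In Late Posterior PSM, where edgeR called 6.15%, Ifitm3 was the only member tested and had an adjusted p of 0.777 and no unadjusted p under 0.05.

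The same day in different experiments gave different levels of some members, and experiment and pool cannot be told apart. Library quality moved with the experiment, and its part was not tested. The median mitochondrial share of UMIs per cell was 5.42% to 5.48% over the lanes of MULTI-seq 1 and 5.20% to 5.32% over those of MULTI-seq 2 used here, against 1.94% to 2.26% over the lanes of the 2 later MULTI-seq 3 pools. The median depth was 8287 to 15709, 25275 to 27116 and 26466 to 38443 UMIs per cell in the same order. At day 4, Nanos3 alone of 8 members differed between MULTI-seq 3 and MULTI-seq 2, where 46.1% of all genes were called. It was at 0.240 to 1.34 CPM (290 UMIs) in MULTI-seq 3 and 0 to 0.788 CPM (9 UMIs) in MULTI-seq 2, higher by 1.35 ± 0.42 (log2, adjusted p = 0.0095). The call was lost without lane 2 of MULTI-seq 2 (0.90, adjusted p = 0.194), and the value was 2.45 (adjusted p = 0.00449) without its lane 3. Without any 1 of the 4 lanes of the MULTI-seq 3 pool Nanos3 was too rare to be tested. Prdm1 (1.17 ± 0.56, adjusted p = 0.0904) and Dppa5a (1.38 ± 0.63, adjusted p = 0.0764) did not pass, but did with total UMIs (adjusted p = 0.04999 and 0.0438), and Prdm1 also by permutation (1.31, unadjusted permutation p = 0.0236). At day 4.5, Ifitm3 alone of 5 members differed, higher in MULTI-seq 3 by 0.47 ± 0.15 (adjusted p = 0.0148), where 42.5% of all genes were called. Its medians were 10.4 CPM in MULTI-seq 3 and 7.05 CPM (3.52 to 13.6) in MULTI-seq 2, and all 16 gastruloids of MULTI-seq 3 lay above the median of MULTI-seq 2. Of the members below edgeR's count filter at day 4.5, Nanos3 had a mean of 0.559 CPM in MULTI-seq 3 and 0.212 CPM in MULTI-seq 2, with 9 of 16 gastruloids above the MULTI-seq 2 range (unadjusted permutation p = 0.00059). Tfap2c was lower in MULTI-seq 3, at 0.478 against 1.17 CPM, with 6 of 16 below that range (unadjusted permutation p = 0.00754). Dppa3, Prdm14 and Dnd1 had permutation p-values of at least 0.138.

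At day 5, 4 of 5 members were higher in MULTI-seq 3 than in MULTI-seq 1, where 63.7% of all genes were called. Of 8 endoderm markers 4 were also higher and none lower (median 1.2, log2), with a summed level of 20.7 to 644 CPM (median 187) against 12.9 to 452 CPM (median 71.9), and their part was not tested. Ifitm3 had medians of 14.4 and 9.27 CPM (5.46 to 20.6 in MULTI-seq 1), a difference of 0.75 ± 0.12 (log2, adjusted p = 7.94e-07). Kit had medians of 6.11 CPM (4.15 to 17.6) and 5.24 CPM (2.52 to 14.7), a difference of 0.64 ± 0.18 (adjusted p = 0.00173). By permutation of log2(CPM + 1) the Kit difference was 0.30 and did not pass (2-sided permutation p = 0.0785). Dppa5a had medians of 12 and 0.657 CPM (0 to 50.5 in MULTI-seq 1), a difference of 1.95 ± 0.63 (adjusted p = 0.00635). The 2 experiments overlapped for each gene. The gastruloid of MULTI-seq 1 at 50.5 CPM held 2 cells named PGCs. Dppa4 differed by 0.61 ± 0.27 (adjusted p = 0.045), a call that was lost without the cells named PGCs (0.49, adjusted p = 0.113), and Dppa5a was then too rare to be tested. Prdm1 did not pass (0.55 ± 0.48, adjusted p = 0.325). Dppa4 was also lost when lane 1 or lane 2 of MULTI-seq 1 or lane C of the MULTI-seq 3 pool was left out, with total UMIs (adjusted p = 0.19), with no filter (adjusted p = 0.0604) and by permutation (0.27, 2-sided permutation p = 0.204). Among the members below edgeR's count filter, Nanos3 had a mean of 0.720 CPM in MULTI-seq 3 and 0.358 CPM in MULTI-seq 1 (unadjusted 2-sided permutation p = 9e-05), and Dppa3 0.644 and 0.0747 CPM (unadjusted 2-sided permutation p = 0.00108). The means of Tfap2c were 0.516 and 0.341 CPM (permutation p = 0.0711), of Prdm14 0.00799 and 0.0619 CPM (permutation p = 0.190) and of Dnd1 0.430 and 0.570 CPM (permutation p = 0.418).

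Of 10 genes for the signals that induce germ cells, 9 were tested in each comparison of MULTI-seq 3. The share of them called was near that of all genes, at 66.7% against 74.8%, 66.7% against 60.4%, 77.8% against 66.1% and 11.1% against 13.5% over the 4 steps, so the counts show nothing particular to these genes. From day 3 to 3.5, 5 rose and 1 fell, Wnt3, the epiblast signal that precedes BMP competence, by -1.57 ± 0.15 (adjusted p = 8.03e-13). From day 3.5 to 4, 4 rose, among them Bmp4 by 1.19 ± 0.39 (adjusted p = 0.00901), and 2 fell, among them Wnt3a by -1.22 ± 0.27 (adjusted p = 0.00028). From day 4 to 4.5 none rose and 7 fell, with Bmp4 at -2.04 ± 0.40 (adjusted p = 3.48e-05). From day 4.5 to 5, 1 rose.

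Among 6 genes of germ cell migration and its niche, 4 rose and 2 fell from day 3.5 to 4, where 60.4% of all genes were called. Cxcl12, the guidance signal, rose by 2.45 ± 0.27 (adjusted p = 8.6e-09), Kitl, the ligand of KIT, by 1.23 ± 0.20 (adjusted p = 3.6e-06), and Cxcr4, the CXCL12 receptor, by 1.08 ± 0.23 (adjusted p = 0.000192). Cxcl12 also rose from day 4 to 4.5, by 1.05 ± 0.31 (adjusted p = 0.00341), and from day 4.5 to 5, by 1.92 ± 0.28 (adjusted p = 2.17e-05). The list had 3 higher and 2 lower from day 3 to 3.5 (83.3%, against 74.8% of all genes), 2 higher and 2 lower from day 4 to 4.5 (66.7% against 66.1%) and 1 higher from day 4.5 to 5 (16.7% against 13.5%). Its summed level had means of 175, 240, 320, 221 and 282 CPM from day 3 to day 5. Of 15 other early germ cell genes, 4 rose and 3 fell among 11 tested from day 3 to 3.5 (63.6%, against 74.8% of all genes). Utf1, at -2.52, and Zfp42, at -2.16, are also pluripotency genes. From day 3.5 to 4, 3 rose and 5 fell among 11 (72.7%, against 60.4% of all genes). Of 12 later germ cell genes only 3 passed the filter from day 3 to 3.5, and all 3 fell, among them Ddx4 (-1.67) and Sycp3 (-1.62).

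Markers of other cell types were counted over the step from day 3.5 to 4, where 60.4% of all genes were called, and their part in the members' changes was not tested. Of 8 endoderm markers 7 rose (87.5%), with Spink1 at 4.67 and Cer1 at 4.6 (log2), and their summed level went from 101 to 368 CPM (median 152) to 49.3 to 1415 CPM (median 628) per gastruloid. Trophoblast and surface ectoderm markers had 3 higher and 2 lower of 5 tested (100%), among them Gata3 at 3.73, and their sum went from 7.36 to 57.8 CPM to 4.20 to 212 CPM. The remaining lists were called about as often as all genes or less. Endothelial markers had 1 higher and 1 lower of 4 tested (50%; summed level 33.3 to 134 CPM, then 29.4 to 97.7 CPM), and neural crest markers had 1 lower of 3 (33.3%; 11.2 to 19.8 CPM, then 13.4 to 20.2 CPM). Among 9 pluripotency genes 1 rose and 3 fell (44.4%), with Pou5f1 at -2.62, and among 6 formative epiblast genes 2 rose and 2 fell (66.7%).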

How the data were processed

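The values are UMI counts per gene and cell that the authors deposited as 10x matrices, made with Cell Ranger 6.0.0 on mm10 per the submitters' processing notes. The sources used here do not name the gene annotation. Cluster names, gastruloid calls, days and embryo mapping are labels in the authors' deposited cell table, made with Seurat per the same notes. Cells called doublets were kept in values by name, not in gastruloid sums. Cells of that table were taken from 18 lanes (9 had no match in the matrices and were dropped), and the lanes of 2 further pools were not used here because the authors excluded them.

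UMIs of cells with 1 gastruloid barcode were summed per gastruloid (at least 30 cells) over the lanes of its pool, which are technical splits. Groups were compared in edgeR 4.0.16 (R 4.3.3) with TMM, filterByExpr, glmQLFit and glmQLFTest. The scripts were tested on simulated data. Gastruloids are separate cultures, but each experiment was made once, so p-values measure the spread between gastruloids. All 10 members were named. Of the other lists, genes past an adjusted p of 0.05 and an absolute log2 change of 1 were named, at most the 4 largest per list and comparison. Members and lists were chosen with earlier results of these data known. Alternatives were DESeq2 1.42.0, total UMIs, ranks within a pool and no cells called doublets (these 3 added after seeing the data), no filter, a joint fit, at least 100 cells, permutation, no cells named PGCs, and each lane left out. Intervals are exact (scipy 1.17.1).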

Additional observations from a re-analysis of the deposited data

Results flagged for a closer look

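The change of Prdm1 from day 4 to day 4.5 differed between MULTI-seq 3 and MULTI-seq 2 by -2.27 ± 0.87 (log2, edgeR's interaction term, adjusted p = 0.0353). Prdm1 fell by 2.02 in MULTI-seq 3 and did not pass in MULTI-seq 2, at 0.25. Its medians were 11 and 1.2 CPM in MULTI-seq 3 and 3.02 and 2.78 CPM in MULTI-seq 2. The 2 days lie in different pools in MULTI-seq 3 and in a shared pool in MULTI-seq 2, so the difference cannot be told apart from a difference of pools.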

How the results depend on the processing

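No paired analysis was possible because the shared lane numbers are technical splits of pools and gastruloid barcodes pair no gastruloids across days. Of 614 member values under alternatives, 560 kept their direction and side of the threshold, 18 lost their call, 11 gained one and 25 changed sign, none of these among the 26 called values. Of 134 counts and shares 101 stayed the same. For counts of members that meant within 1.5 times, and for co-detection shares within their interval. For the difference in PGC share it meant the same direction and side of the threshold.

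The number of members called in MULTI-seq 2 (main 1) was 0 in the joint fit, with at least 100 cells, with no filter and with total UMIs, and 2 by permutation. Left-out lanes gave 0 to 1. For day 4.5 against day 4 of MULTI-seq 3 (main 3) it was 5 in the joint fit and by permutation. For day 5 against day 4.5 (main 1) it was 2 by permutation, 0 without cells named PGCs, and 0 to 1 over left-out lanes. For day 4 between experiments (main 1) it was 0 in the joint fit, 2 by permutation, 3 with total UMIs and 0 to 1 over left-out lanes. For day 4.5 between experiments (main 1) it was 2 in the joint fit and 3 with no filter and by permutation. For day 5 between experiments (main 4) it was 2 without cells named PGCs. In Early Posterior PSM (main 1) it was 2 with at least 50 cells. The number of members highest in germ cells went from 8 to 1 with the embryo-mapped names. Thinning took the co-detection shares to 1.43% over all pools and to 0.709%, 1.28% and 6.06% by pool. Over left-out lanes the difference in PGC share was 0.0895 to 0.131 percentage points at day 4 (0.0912 and 0.0945 without lanes D and B, which ended the call) and 0.0567 to 0.159 at day 5 (0.0710 and 0.0567 without lanes B and C).

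Sign changes were in values that passed no test. Prdm1 in MULTI-seq 2 was -0.049 with 100 cells. Kit from day 3 to 3.5 was 0.064 by permutation and 0.086 with total UMIs. Dppa5a from day 3.5 to 4 was -0.043 by permutation and -0.38 without cells named PGCs. Ifitm3 from day 4 to 4.5 was -0.065 by permutation and -0.086 with total UMIs. Kit from day 4.5 to 5 was -0.051 to 0.093 over left-out lanes. At day 4 between experiments, left-out lanes gave Dnd1 -0.076 to 0.13, Dppa4 -0.087 to 0.031, Kit -0.16 to 0.029 and Tfap2c -0.070 to 0.60. There Dnd1 was -0.011 without cells named PGCs, Tfap2c -0.14 with DESeq2 and Ifitm3 -0.081 with 100 cells. Dppa4 was 0.015 with 100 cells, 0.0049 with no filter, 0.14 by permutation and 0.10 with total UMIs. Kit was 0.063 with 100 cells, 0.039 by permutation and 0.092 with total UMIs. At day 4.5 left-out lanes gave Kit -0.14 to 0.066. The cause was not tested in any of these.

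Total UMIs in place of TMM moved the median of all genes by 0.16 from day 3 to 3.5, by -0.20 from day 4 to 4.5, by 0.16 at day 4 between experiments and by -0.22 at day 5, and the share of calls that were higher from 52.5% to 72.1%, from 48.9% to 24.5%, from 49.9% to 77.4% and from 47.1% to 18.1%. It also moved that share from 47.2% to 58.3% from day 4.5 to 5, from 41.2% to 57.3% in MULTI-seq 2 and from 49.7% to 39.3% at day 4.5 between experiments. With no filter it was 62.9% from day 4.5 to 5, 38.0% from day 4 to 4.5 and 60.7% at day 4. In MULTI-seq 2 the genes called (335 higher, 479 lower) were 904 and 966 in the joint fit, 217 and 318 without lane 2, and 136 and 204 without lane 3. Depth limits Prdm14, Dppa3 and Nanos3, which most gastruloids hold in few UMIs.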

Other observations

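In the groups named below, the authors' gastruloid classes, which rest on cell makeup, held different levels of Prdm1, given here as values without a test. The other groups are not given, and how many of all genes stood apart in the same way was not counted. At day 4 of MULTI-seq 2 Prdm1 was at 1.13 to 10.9 CPM in 8 mesodermal gastruloids and at 0 to 0.496 CPM in 3 neural ones. At day 4.5 it was at 1.75 to 14.6 CPM in 7 and 0 to 0.881 CPM in 5 gastruloids of MULTI-seq 2, and at 0.652 to 10.4 CPM in 9 and 0 to 0.618 CPM in 7 gastruloids of MULTI-seq 3. Dppa4 stood apart in the same way at day 4.5 of MULTI-seq 3 (1.62 to 5.87 CPM mesodermal, 0.368 to 1.16 CPM neural). It also did at day 5 of MULTI-seq 1 (2.17 to 5.41 CPM in 7 mesodermal, 0 to 1.23 CPM in 8 neural, of 24 gastruloids).

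The lanes without gastruloid barcodes gave values of their own, with 3058 cells of day 3 and 2440 cells of day 4. Dppa5a was at 53.1 CPM at day 3 and 2.98 CPM at day 4, Tfap2c at 2.62 and 0.612 CPM, and Dppa4 at 7.12 and 1.68 CPM. Prdm1 was at 1.61 CPM at day 3 and 10.2 CPM at day 4. Ifitm3 was at 14.8 and 11.4 CPM, Kit at 7.61 and 5.99 CPM, and Dnd1 at 3.43 and 0.772 CPM. Dppa3 was at 1.01 CPM (0.76 to 1.31, 55 UMIs) at day 3 and 0.0266 CPM (1 UMI) at day 4, and over all cells of a lane it was at 0.456 and 0.531 CPM in the 2 day 3 lanes of MULTI-seq 3 and at 0.629 to 1.03 CPM in the 4 lanes of its days 3.5 and 4. Nanos3 was at 0.514 CPM (28 UMIs) and 0.266 CPM (10 UMIs), and Prdm14 at 0.165 CPM (9 UMIs) and 0.0532 CPM (2 UMIs). With 1 lane per day these values have no replicate check.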
